A study of Mus musculus with 15 samples.

Results

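Whole testes of AA mice were compared with whole testes of Control mice by RNA sequencing, with 3 AA libraries and 3 Control libraries out of the 15 libraries of the series. Every sample was testis tissue of C57/BL6 mice. The AA group was given a treatment that the labels call AA, and the Control group is labelled Control. The labels do not spell out AA and state no dose, age, duration or vehicle. The series concerns modifications of histones H3 and H4 during the first meiotic prophase, and the other libraries belong to treatments named MTX, HMS-I1 and TSA. The comparison took in every gene with a mean of at least 10 normalised counts over the 15 libraries, which left 17896 of the 36118 genes in the table. Nothing in the labels says that the 3 libraries of a group came from separate animals, so a p-value here speaks only of the spread among these libraries, which may be technical.

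The testis makes sperm in tubules in which stem spermatogonia divide, enter meiosis as spermatocytes and become round and then elongating spermatids. In elongating spermatids most histones are exchanged first for transition proteins and then for protamines, and the acetylation of histones is known to prepare this exchange. Sertoli cells nurse the germ cells inside the tubules, while Leydig cells outside them make testosterone from cholesterol beside vessels, myoid cells and resident macrophages. In RNA from a whole organ, fewer cells of a type and less RNA per cell cannot be told apart.

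The 6 libraries did not divide first by treatment. AA 1 lay with Control 1 and Control 2, and AA 2 and AA 3 lay with Control 3. Across genes, AA 1 correlated at 0.97 with Control 1 and at 0.973 with Control 2, but at 0.922 with AA 2 and 0.893 with AA 3. The mean log2 value of 51 replication-dependent histone genes was 8.24, 3.09 and 3.13 in AA 1 to 3, against 8.5, 8.3 and 3.16 in Control 1 to 3. The 13 genes of the mitochondrial genome took 1.28%, 5.95% and 8.23% of the library total in AA testes, against 1.11%, 1.40% and 8.06% in Control testes. AA 1, Control 1 and Control 2 are called the first set here and AA 2, AA 3 and Control 3 the second set, a division made from the measured values and not from the labels. The column totals were 2.84e+07 to 3.07e+07 in AA libraries and 3.08e+07 to 3.35e+07 in Control libraries, but they are scaled values and the sequencing depth is unknown. The most frequent value above 0, which would be worth 1 read if whole reads had been counted, was larger in the first set, 2.05 in AA 1 and 1.98 and 2.13 in Control 1 and 2, than in the second, 0.917 and 0.521 in AA 2 and 3 and 0.651 in Control 3. A low gene is therefore measured more coarsely in the first set. Because 2 of the 3 AA libraries and 1 of the 3 Control libraries are in the second set, a gene that differs between the sets differs between the groups as well. For this reason differences are also given, for the lists and the main genes, within the first set (AA 1 minus the mean of Control 1 and 2) and within the other set (the mean of AA 2 and 3 minus Control 3). The tissue label was checked against marker genes: all 27 spermatid genes and all 27 Sertoli cell genes listed were measured, while of 12 epididymis genes 3 had a mean of at least 10 and 3 were at 0 in all 6 libraries.

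**Figure D1:**
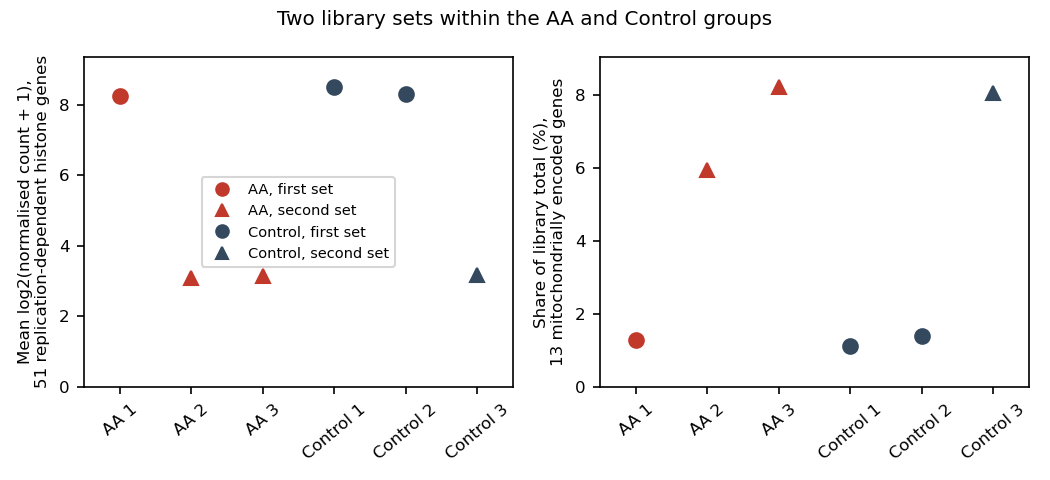
Mean log2(normalised count + 1) of the replication-dependent histone genes (left) and share of the library total in percent taken by the mitochondrially encoded genes (right) in each AA and Control library. AA 1 lies at 8.24 beside Control 1 and 2 in the left panel, and AA 2 and 3 lie at 3.09 and 3.13 beside Control 3 at 3.16.

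No gene passed the threshold in AA against Control. With limma on log2(normalised count + 1), 0 of the 17896 genes (0%) had an adjusted p under 0.05, and the smallest adjusted p was 1.00. At an unadjusted p under 0.05 there were 143 genes (0.799%), and with the library set as a term in the model 0 genes passed and 297 (1.66%) were under 0.05 unadjusted. Both shares are below the share of 0.05 that uniform p-values would give. A large adjusted p here therefore does not show that a gene is unchanged. Fitted on the 6 AA and Control libraries alone, 2 genes passed, and with estimated library weights, which did not converge, 6645 did. The 3 AA libraries lay entirely above the 3 Control libraries for 503 genes (2.81%) and entirely below them for 399 (2.23%). The median log2 difference of all genes, AA minus Control, was -0.02, with 8471 genes (47.3%) above 0 and 9418 (52.6%) below 0. Another description used both sets: AA 1 beyond both Control 1 and 2, and AA 2 and AA 3 both beyond Control 3, all in the same direction. It is looser than the count without overlap, since every gene whose groups do not overlap also meets it. On this condition 1759 genes (9.83%) lay higher in AA testes and 1670 (9.33%) lower, and the counts became 2300 (12.9%) and 1210 (6.76%) when each library was scaled by its upper quartile. All single genes below are therefore descriptions of levels that did not pass the test.

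Among genes with a mean of at least 50, the 20 with the smallest p were 10 higher and 10 lower in AA testes, and the AA and Control libraries were separate for 18 of them, all but Pomc and Polrmt. The smallest p among the higher genes was that of Ptpro (ENSMUSG00000030223), a receptor tyrosine phosphatase. It had 130, 71.8 and 85.4 normalised counts in AA 1, 2 and 3, against 33.7, 50.2 and 28.6 in Control 1, 2 and 3. The log2 difference was 1.32 with a standard error (SE) of 0.36 (limma adjusted p = 1.00), and it was 1.63 within the first set, against 1.42 within the second. Each AA library lay above every Control library, in both sets.

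Pkia (ENSMUSG00000027499), an inhibitor of the cyclic AMP-dependent protein kinase, had 475, 422 and 577 normalised counts in AA testes, against 300, 190 and 277 in Control testes. Its log2 difference was 0.96 (SE 0.26), and 0.99 and 0.83 within the sets. Stard5 (ENSMUSG00000046027), a carrier that binds sterols and bile acids, had the tightest values of the group, 248, 248 and 272 normalised counts in AA testes against 129, 135 and 126 in Control testes. Its mean was 256 ± 13.7 in AA and 130 ± 4.42 in Control (SD, n = 3 each), a log2 difference of 0.97 (SE 0.30), and 0.91 and 1.03 within the sets. The 3 AA values and the 3 Control values each lay close together, although the libraries come from both sets.

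Il17ra (ENSMUSG00000002897), the receptor for interleukin 17, had 376, 338 and 657 normalised counts in AA testes, against 173, 99.3 and 212 in Control testes, a log2 difference of 1.5 (SE 0.52). Within the sets it was 1.51 and 1.15. Traf3ip2, the adaptor that carries the signal of this receptor, was at 65.8, 67.6 and 55.0 normalised counts in AA testes against 58.9, 11.9 and 30.1 in Control testes. Its groups overlapped (AA 3 at 55.0, Control 1 at 58.9), but within each set the AA libraries were the higher ones. The other higher genes were Rsad1, Adam12 (a membrane metalloprotease), Gabra5 (a subunit of the GABA receptor), Sorl1 (a sorting receptor), Dnase1l1 and Ldhd (a mitochondrial D-lactate dehydrogenase), with log2 differences from 1.00 to 1.15.

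The 10 lower genes were Krtcap2, Cenpx, Krt10, Arhgef40, Pomc, Hpse2, Polrmt, Mad2l2, Zfp511 and Trim28, with log2 differences from -1.49 to -0.49. Trim28 (ENSMUSG00000005566), a corepressor that recruits a histone H3 lysine 9 methyltransferase to silenced chromatin, was at 8530, 5276 and 6495 normalised counts in AA testes, against 9813, 8806 and 9445 in Control testes. Its log2 difference was -0.49 (SE 0.19, limma adjusted p = 1.00), and it was -0.12 in the first set, against -0.69 in the second. The AA libraries were the 3 lowest, AA 1 by a narrow margin.

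Mad2l2 (ENSMUSG00000029003), a HORMA-domain protein of DNA repair and of early germ cells, was at 3395, 2320 and 2374 normalised counts in AA testes, against 3826, 4379 and 3687 in Control testes. The log2 difference was -0.57 (SE 0.21), and -0.27 and -0.65 within the sets. Cenpx, a small protein of the kinetochore and of DNA repair, was at 340, 270 and 307 normalised counts in AA testes against 401, 565 and 528 in Control testes. For both genes the 3 AA libraries lay below the 3 Control libraries. Pomc, the precursor of melanocortins and endorphin that Leydig cells also express, was at 175, 72.8 and 81.4 in AA testes against 277, 271 and 152 in Control testes. Polrmt, the RNA polymerase of mitochondria, was at 449, 284 and 331 normalised counts in AA testes against 764, 941 and 417 in Control testes, with AA 1 above Control 3. AA 1 also lay above Control 3 for Pomc.

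**Figure D2:**
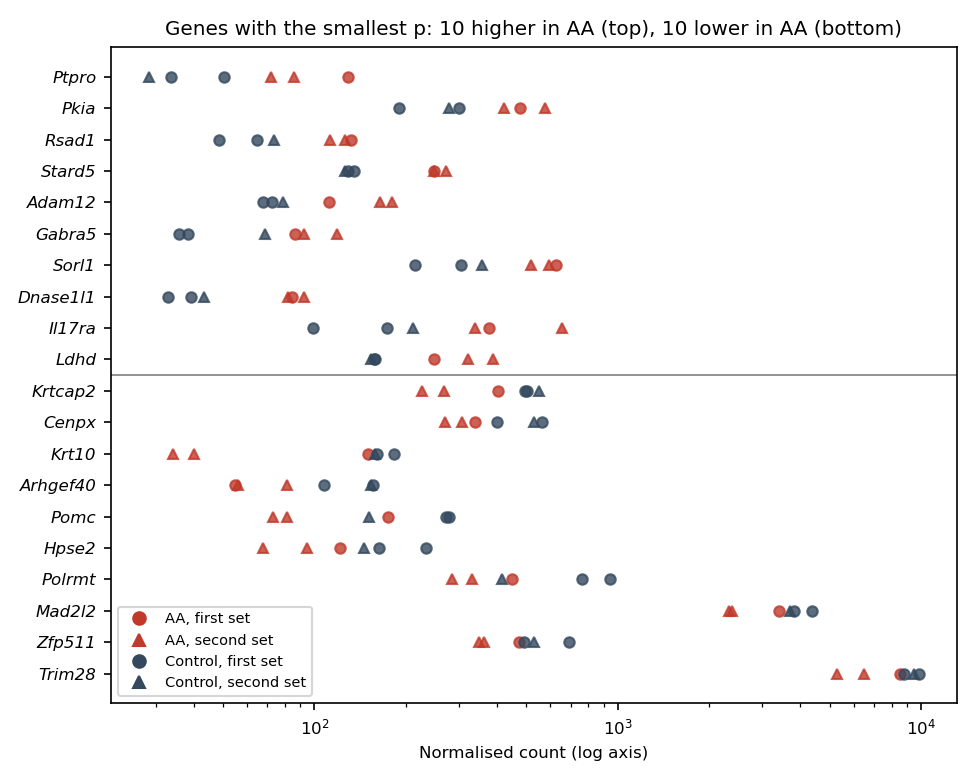
Normalised counts on a log axis of the 20 genes with the smallest limma p, 10 higher and 10 lower, one point per library, with AA in red and Control in dark blue, and circles for the first set and triangles for the second. In 18 rows the red and blue points are separate, which picking genes by p from these same libraries favours. No gene passed an adjusted p of 0.05.

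The genes with the largest differences within both sets included several of immune cells and of the interferon response. Tgtp2, a GTPase induced by interferon, was at 179, 259 and 905 normalised counts in AA testes, against 47.2, 77.4 and 138 in Control testes, with log2 differences of 1.55 in the first set, against 1.80 in the second. Slfn2, of the Schlafen family of lymphoid cells, was at 71.3, 131 and 401 in AA testes, against 40.3, 27.9 and 88.4 in Control testes. In both genes AA 3 held by far the highest value. Mrc2 (a collagen receptor), Arsg (a sulfatase) and Clec5a (a receptor of myeloid cells) were also among these genes, beside Ptpro, Il17ra, Dnase1l1 and Traf3ip2, which are described above.

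On the lower side, Creb5, a transcription factor that binds cyclic AMP response elements, was at 5588, 104 and 624 normalised counts in AA testes, against 10914, 9956 and 1078 in Control testes. Its level differed more between the sets than between the groups. Pmp2, a fatty acid carrier of myelin, was at 54.1, 23.5 and 35.2 normalised counts in AA testes against 98.2, 123 and 71.7 in Control testes, and its groups did not overlap. Pls1 (an actin-bundling plastin) and Nlrp4f had log2 differences of -0.97 and -0.91 in the first set and -1.14 and -0.92 in the second. The same rule also named Arhgef40, and Olfr1238, Vmn1r218, Vmn1r81, Fam177a and Ppp1ccb, which belong to families of near-identical copies or are low or pseudogene entries and are not described further.

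The genes of elongating spermatids lay lower in AA testes. Of 27 genes in the list, 25 had a log2 difference below 0 and 2 above 0, with a median of -0.31 against -0.02 for all genes. None passed the limma test. Within the first set 24 of 27 lay below 0 with a median of -0.08, and within the second set 21 of 27 with a median of -0.34. The condition of AA below Control in both sets was met by 11 of 27 genes (40.7%, against 9.33% of all genes) and by none in the other direction. With AA 3 left out of the condition, 11 of 27 met it (40.7%, against 13.1% of all genes), and with upper quartile scaling 7 of 27 (25.9%, against 6.76%). After quantile normalisation 7 of 27 were lower (25.9%, against 8.66% of all genes) and 2 were higher (7.41%, against 10.6%). The summed normalised counts of the list were 1114527, 721995 and 622029 in AA 1 to 3, against 1166727, 1364000 and 978588 in Control 1 to 3.

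The protamines and transition proteins, which package the DNA of the sperm head, were among the 11 genes. Prm1 (ENSMUSG00000022501) was at 101050, 38484 and 27525 normalised counts in AA testes, against 128626, 180451 and 70255 in Control testes. The log2 difference was -1.31 (SE 0.65, limma adjusted p = 1.00), with -0.59 in the first set, against -1.11 in the second. AA 1 at 101050 lay above Control 3, so the groups overlapped, while within each set the AA values were lower.

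Prm2 (ENSMUSG00000038015), the protamine made as a longer precursor, was at 191033, 85385 and 59107 normalised counts in AA testes, against 194680, 243561 and 113047 in Control testes. Tnp2 (ENSMUSG00000043050) was at 65369, 45941 and 37750 in AA testes, against 70196, 86746 and 68231 in Control testes. Here all 3 AA libraries lay below all 3 Control libraries, with a log2 difference of -0.62 (SE 0.43). Tnp1 and Prm3 had log2 differences of -0.15 and -0.46 within the first set, against -0.27 and -0.49 within the second.

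The other members below Control in both sets serve the tail, the mitochondrial sheath and chromatin. Oaz3, an antizyme of spermatids that restrains polyamine synthesis, was at 34347, 31190 and 22371 normalised counts in AA testes, against 35114, 45074 and 44116 in Control testes, with no overlap. Meig1, needed for the transport of tail proteins, was at 81597, 37960 and 48148 in AA testes, against 82607, 109126 and 70722 in Control testes. Its AA 1 value was within the range of the Control libraries.

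Odf1, of the outer dense fibres of the tail, and Spata18 had log2 differences of -0.28 and -0.13 over all libraries, and both were lower within each set. Brdt, the bromodomain protein that binds acetylated histone H4 in spermatids and is needed for their compaction, was at 8169, 7839 and 9099 normalised counts in AA testes, against 8310, 8206 and 10713 in Control testes. Its difference of -0.02 in the first set was the smallest of the 11 and that of the second set was -0.34. Smcp, of the mitochondrial sheath, was at 8365, 50983 and 64247 normalised counts in AA testes, against 9535, 9024 and 141877 in Control testes. Over all libraries its log2 difference was 0.39 (SE 1.37), while it was -0.15 within the first set, against -1.31 within the second.

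**Figure D3:**
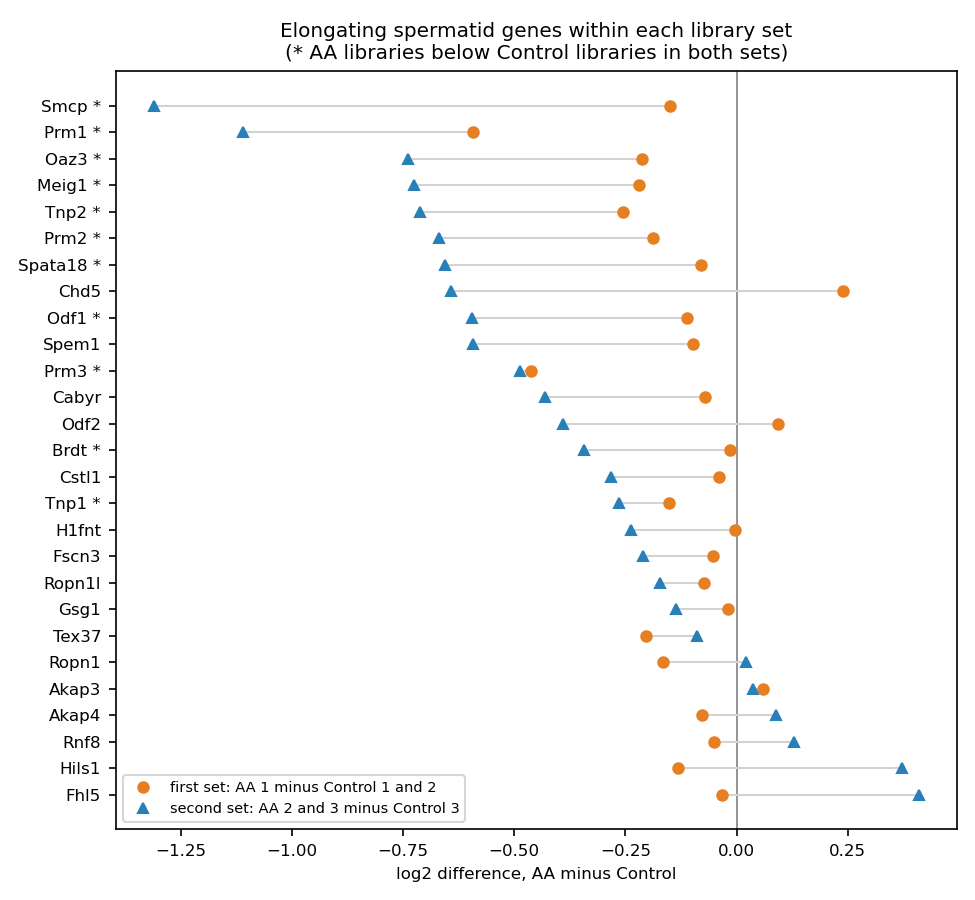
Log2 difference, AA minus Control, of the 27 elongating spermatid genes within the first set (circles) and within the second set (triangles), with stars for the 11 genes whose AA libraries lay below their Control libraries in both sets. Prm1 lies at -0.59 and -1.11, and the circles of 24 genes lie below 0.

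The lists of earlier germ cells differed from each other. Of 23 genes of round spermatids 17 lay below 0, with a median of -0.03 (-0.01 and -0.18 within the sets). The 3 of 23 that met the within-set condition, against 9.33% of all genes, included Tssk3, a kinase of spermatids, at 6494, 5680 and 4135 normalised counts in AA testes against 6937, 7594 and 7262 in Control testes, and Zpbp2, a protein of the acrosome, with a log2 difference of -0.16. Of 23 genes of pachytene and late spermatocytes 21 lay below 0 (median -0.20), but the median was 0.04 in the first set, against -0.35 in the second. The 3 of 23 that were lower in both sets (13%, against 9.33% of all genes) included Nxt1, a factor of RNA export, and Tbpl1, a TBP-like factor of spermatid gene expression. Their log2 differences were -0.40 and -0.21. Spag6 was the 1 member higher in both sets (4.35%, against 9.83% of all genes). After quantile normalisation 0 members were lower and 1 was higher.

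The genes of the meiotic chromosome axis and synapsis had 19 of 22 members below 0, a median of -0.19, and 0.06 and -0.47 within the first and second sets. Without Control 3 the median was -0.04, and 13 of the 22 lay below 0. The within-set condition was met by 2 of 22, both lower, against 9.33% of all genes. Syce2, a central element protein of the synaptonemal complex, was at 3268, 4055 and 3037 normalised counts in AA testes, against 4205, 3811 and 4839 in Control testes. Trip13, the ATPase that removes HORMA proteins from synapsed axes, had log2 differences of -0.53 and -0.54 within the sets. Neither gene had groups that stood apart over all 6 libraries.

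Of 31 genes of meiotic recombination 18 lay below 0 (median -0.08, and -0.01 and -0.16 within the sets). In both sets 2 were higher (6.45%, against 9.83% of all genes) and 4 lower (12.9%, against 9.33%). With upper quartile scaling 2 were higher (6.45%, against 12.9% of all genes) and 0 lower (0%, against 6.76%). Spo11, the enzyme that makes the meiotic DNA breaks, was at 2847, 1713 and 1709 normalised counts in AA testes, against 2510, 3139 and 2617 in Control testes, so that AA 1 lay within the Control range. Of 19 genes of prophase DNA damage signalling and sex chromosome silencing 10 lay below 0, with a median of 0.00 in the second set and -0.01 in the first. Within both sets Atr and Brca1 were higher, 2 of 19 (10.5%, against 9.83% of all genes). H2afx was the 1 member lower in both (5.26%, against 9.33%). H2afx, the histone variant that is phosphorylated at breaks and on the silenced sex chromosomes, was at 890, 815 and 911 normalised counts in AA testes, against 1259, 925 and 1116 in Control testes, with no overlap and a log2 difference of -0.33 (SE 0.24).

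The piRNA pathway, which silences transposons in germ cells, had 20 of 24 genes below 0 and a median of -0.14, with -0.04 and -0.20 within the sets. The members lower in both sets were 5 of 24 (20.8%, against 9.33% of all genes), but 2 of 24 after quantile normalisation (8.33%, against 8.66% of all genes). Pld6, an enzyme of piRNA processing at the mitochondrial surface, was at 1358, 707 and 536 normalised counts in AA testes, against 1402, 1546 and 1059 in Control testes. Piwil4, a Piwi protein of fetal germ cells, was low in all 6 libraries, at 10.2, 14.7 and 13.3 normalised counts in AA testes against 35.1, 30.7 and 15.2 in Control testes. The others were Tdrd7, Mov10l1 and Henmt1, with log2 differences of -0.40 (SE 0.29), -0.21 (SE 0.19) and -0.23 (SE 0.23).

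Of the 13 genes of undifferentiated spermatogonia 9 lay above 0 (median 0.44), but the median was 0.07 with the set as a term, and -0.03 and 0.15 within the sets. Gfra1, the receptor that marks stem spermatogonia, was at 89.8, 86.7 and 81.6 normalised counts in AA testes against 138, 119 and 89.9 in Control testes. Lin28a, of early progenitors, was at 98.3, 219 and 252 in AA testes against 85.2, 82.4 and 211 in Control testes. These members lay in opposite directions. Of the 13 genes of differentiating spermatogonia 9 lay above 0 (median 0.08, and 0.03 and -0.12 within the sets). Only Dmrtb1 of these met the within-set condition (7.69%, against 9.33% of all genes lower in both sets). It had 11473, 9982 and 9583 normalised counts in AA testes against 11892, 13289 and 13955 in Control testes. Dmrtb1 coordinates the passage of spermatogonia into meiosis.

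Genes of Leydig cells lay higher in AA testes. Of 20 genes 19 had a log2 difference above 0, with a median of 0.41 against -0.02 for all genes, and none passed the limma test. The median was 0.03 in the first set, against 0.54 in the second, and 15 of 20 lay above 0 in each set. The 1 gene below 0 was Insl3, a product of Leydig cells. It was at 4650, 4910 and 6317 normalised counts in AA testes, against 4591, 4660 and 9229 in Control testes. Its log2 difference was -0.15, and 0.01 and -0.73 within the sets. The within-set condition was met by 7 of 20 genes (35%, against 9.83% of all genes), all higher, and by 7 of 20 (35%, against 12.9%) under upper quartile scaling. Without AA 3, 12 of 20 genes lay above 0 with a median of 0.20. The summed normalised counts were 65586, 77617 and 108303 in AA testes, against 53453, 63665 and 68329 in Control testes, and no listed gene was at 0 in all 6 libraries.

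The 7 genes included the steps by which cholesterol becomes androgen. Star (ENSMUSG00000031574), which brings cholesterol into mitochondria, was at 7735, 3398 and 3776 normalised counts in AA testes, against 3774, 5679 and 1624 in Control testes. Its groups overlapped, and its difference was 0.74 within the first set, against 1.14 within the second. Cyp11a1 (ENSMUSG00000032323), which cleaves the cholesterol side chain, was at 6098, 7598 and 10422 normalised counts in AA testes, against 4687, 5794 and 3107 in Control testes. All 3 AA libraries were above all 3 Control libraries, with a log2 difference of 0.84 (SE 0.50, limma adjusted p = 1.00).

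Cyp17a1, the next enzyme on the way to androgen, was at 12060, 12872 and 20051 normalised counts in AA testes, against 9260, 11808 and 9963 in Control testes. Its groups did not overlap, though AA 1 and Control 2 were close. Hsd3b1, which oxidises the steroid ring, had log2 differences of 0.30 and 0.52 within the sets. Nr5a1, the transcription factor of steroid-making cells, Fdxr, which feeds electrons to Cyp11a1, and Aldh1a1 had differences of 0.02, 0.10 and 0.13 within the first set, against 0.57, 0.80 and 0.57 within the second. Of the 22 genes of cholesterol synthesis and uptake 15 lay above 0 (median 0.16, and 0.02 and 0.22 within the sets), and 3 of 22 met the within-set condition, against 9.83% of all genes. Among these Dhcr7, the last enzyme of the pathway, was at 372, 472 and 685 normalised counts in AA testes, against 349, 274 and 317 in Control testes. Nsdhl, an earlier enzyme, had a log2 difference of 0.58 (SE 0.46).

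**Figure D4:**
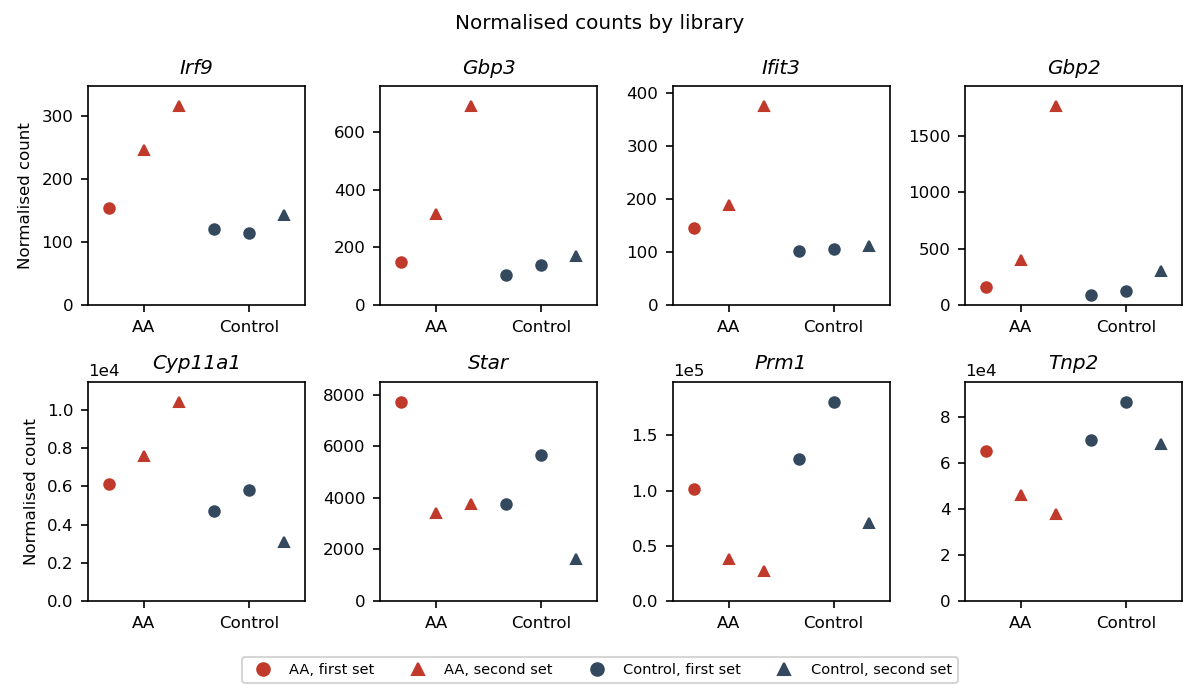
Normalised counts of 4 interferon-response genes (Irf9, Gbp3, Ifit3, Gbp2), 2 steroid synthesis genes (Cyp11a1, Star) and 2 spermatid genes (Prm1, Tnp2) in each AA library (red) and Control library (dark blue), with circles for the first set and triangles for the second. AA 3 is the highest library for the 4 interferon genes, while Prm1 and Tnp2 are lower in AA within each set.

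Genes of the interferon response also lay higher in AA testes, with their highest values in AA 3. Interferons act through transcription factors, Irf9 among them, that bind a short promoter element and switch on the genes of antiviral proteins. Of 32 effector genes 28 lay above 0 (median 0.63), and of 21 sensors and regulators 19 lay above 0 (median 0.48). None passed the limma test. The effector median was -0.02 in the first set, against 0.92 in the second, and that of the sensors and regulators 0.09 and 0.70. Without AA 3 the medians were 0.27 for the effectors, with 28 of 32 above 0, and 0.20 for the sensors and regulators, with 14 of 21 above 0. The within-set condition was met by 9 of 32 effectors (28.1%) and 7 of 21 sensors and regulators (33.3%), against 9.83% of all genes, and by none in the lower direction. These counts were 9 of 32 and 7 of 21 without AA 3 as well, against 12.9% of all genes.

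The promoters of 3 of these effectors are shown because they carry the element that the interferon factors bind, the interferon-stimulated response element, searched as GAAANNGAAA on both strands. They are the 3 effectors with the smallest p among those that met the within-set condition and hold the element. The sequences are stretches of the RefSeq promoter windows, on build GRCm38.p6, each written 5′ to 3′ on the strand of its gene. Capitals mark the matches, which read here as the reverse complement of the search word. Gbp3 lies at chr3:142559924-142560043 on the plus strand, Ifit1 at chr19:34640739-34640858 on the plus strand and Ifit3 at chr19:34583335-34583454 on the plus strand.
Gbp3: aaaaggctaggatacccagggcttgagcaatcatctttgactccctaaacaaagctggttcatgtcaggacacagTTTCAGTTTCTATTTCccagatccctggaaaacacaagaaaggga
Ifit1: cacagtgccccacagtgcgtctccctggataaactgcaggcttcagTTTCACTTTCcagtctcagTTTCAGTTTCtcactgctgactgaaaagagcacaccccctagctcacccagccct
Ifit3: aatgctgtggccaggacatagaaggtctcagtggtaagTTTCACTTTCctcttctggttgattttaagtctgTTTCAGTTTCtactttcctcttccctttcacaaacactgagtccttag

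Each of the 3 windows holds 2 matches, which overlap in Gbp3. The element was found in 15 of the 26 effector genes that have a window (57.7%). It was found in 3 of 15 sensors and regulators (20%), against 3.74% of the tested genes with a window. Counted by window and not by gene, it was in 3.44% of all 32851 windows. Of the genes higher in AA within both sets 5.25% held it, and of those lower in both sets 2.68%, against 3.74% of the tested genes with a window. Such a match describes letters in a window and not a site in use.

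Gbp3 (ENSMUSG00000028268), a guanylate-binding GTPase, was at 150, 316 and 690 normalised counts in AA testes, against 104, 138 and 171 in Control testes. Its log2 difference was 1.24 (SE 0.68, limma adjusted p = 1.00), with 0.32 in the first set, against 1.44 in the second. AA 1 at 150 lay inside the Control range, which ended at 171 in Control 3. Ifit1 (ENSMUSG00000034459), which binds foreign RNA, was at 68.2, 82.0 and 136 normalised counts in AA testes, against 37.0, 61.1 and 48.8 in Control testes. The 3 AA libraries lay above the 3 Control libraries.

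Ifit3 (ENSMUSG00000074896), a partner of Ifit1, was at 145, 189 and 376 normalised counts in AA testes, against 102, 105 and 112 in Control testes, also with no overlap. Ifit3b is a near copy of Ifit3 whose window holds the same letters, and reads may be split between them. It was at 53.9, 62.8 and 104 normalised counts in AA testes against 33.2, 44.5 and 61.6 in Control testes. Gbp2 had the widest range, with 157, 400 and 1762 normalised counts in AA testes against 90.8, 128 and 301 in Control testes. AA 3 stood far above the other AA libraries, and Gbp7, Parp14 and Ifi35 also had their highest value in AA 3.

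Among the regulators, Irf9 (ENSMUSG00000002325), the DNA-binding part of the interferon factor, had an unadjusted p under 0.05. It was at 153, 246 and 315 normalised counts in AA testes, against 120, 114 and 142 in Control testes, with no overlap. The mean was 238 ± 81.3 in AA and 125 ± 14.8 in Control (SD, n = 3 each), a log2 difference of 0.87 (SE 0.34, limma adjusted p = 1.00), and 0.39 and 0.97 within the sets.

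The sensors of foreign nucleic acid that met the within-set condition were Ifih1, which binds double-stranded RNA, Zbp1, which binds Z-form nucleic acid, and Tmem173, the receptor known as STING. Tmem173 was at 52.6, 93.7 and 164 normalised counts in AA testes, against 36.1, 41.7 and 39.4 in Control testes, with no overlap. Ifih1 and Zbp1 had log2 differences of 0.96 (SE 0.51) and 1.75 (SE 0.98). Irf1, a factor induced by interferon gamma, was at 127, 305 and 675 normalised counts in AA testes, against 97.7, 124 and 172 in Control testes. AA 3 was the highest library for each of these genes.

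The genes of antigen presentation, which interferon gamma induces, had 15 of 17 members above 0 (median 0.76), but a median of -0.14 in the first set, against 0.83 in the second, and without AA 3 the median was 0.22. Ciita, the master regulator of class II presentation, was at 26.6, 49.2 and 140 normalised counts in AA testes, against 8.61, 16.8 and 21.7 in Control testes, with no overlap. Its log2 difference was 1.88 (SE 0.77, limma adjusted p = 1.00). Psmb8, of the immunoproteasome, was the other member higher in both sets, which made 2 of 17 (11.8%, against 9.83% of all genes).

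Markers of leukocytes were set beside these genes. Of 25 genes of macrophages and other leukocytes 20 lay above 0 (median 0.60), with a median of 0.02 in the first set, 0.51 in the second and 0.17 without AA 3. The summed normalised counts of the 26 listed genes were 20977, 19105 and 26378 in AA testes, against 21895, 21631 and 16250 in Control testes, so that the groups overlapped, and no listed gene was at 0 in all 6 libraries. Adgre1, the macrophage marker F4/80, was at 173, 496 and 613 normalised counts in AA testes, against 171, 254 and 185 in Control testes. Cx3cr1, Lyz2 and Cd14, all of myeloid cells, were higher in both sets, with log2 differences of 1.00, 0.66 and 0.79. They were 3 of 25 genes (12%, against 9.83% of all genes). Cd3e was the 1 member lower in both sets (4%, against 9.33%), with differences of -1.075 and -0.29. Aif1 was among the 5 genes below 0 over all libraries. The part of leukocytes in the interferon values was not tested.

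Of 14 endothelial genes 13 lay above 0 (median 0.39), but within the first set 7 lay above and 7 below 0. The median was 0.02 and 0.26 within the sets, 0.13 with the set as a term and 0.22 without AA 3. The members higher in both sets were 3 of 14 (21.4%, against 9.83% of all genes), while after quantile normalisation 1 was higher and 1 lower. Kdr, the main receptor of vascular endothelial growth factor, was at 328, 293 and 369 normalised counts in AA testes, against 219, 177 and 260 in Control testes, with no overlap and a log2 difference of 0.60 (SE 0.28), and 0.73 and 0.34 within the sets. Tek, the receptor of angiopoietins, and Erg, an endothelial transcription factor, had differences of 0.50 (SE 0.33) and 0.91 (SE 0.69), which were 0.41 and 0.57 in the first set, against 0.27 and 0.23 in the second. All 25 genes of the extracellular matrix lay above 0 (median 0.51), with a median of 0.14 in the first set, against 0.49 in the second, and 5 of 25 met the within-set condition (20%, against 9.83% of all genes).

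Lum, a proteoglycan of collagen fibrils, was at 209, 297 and 287 normalised counts in AA testes, against 153, 188 and 147 in Control testes, with no overlap. Col5a1, which nucleates collagen fibrils, Col3a1, a fibrillar collagen, and Dcn, the proteoglycan decorin, had log2 differences of 0.41 (SE 0.24), 0.68 (SE 0.67) and 0.51 (SE 0.51). Sertoli cell genes had 23 of 27 above 0 (median 0.35) and peritubular myoid genes 11 of 12 (median 0.35), but with the set as a term these medians were -0.01 and -0.06. Vim, the intermediate filament of Sertoli and other somatic cells, was at 1943, 4097 and 5468 normalised counts in AA testes against 2178, 1747 and 3415 in Control testes, so that the second set held the higher values in both groups.

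**Figure D5:**
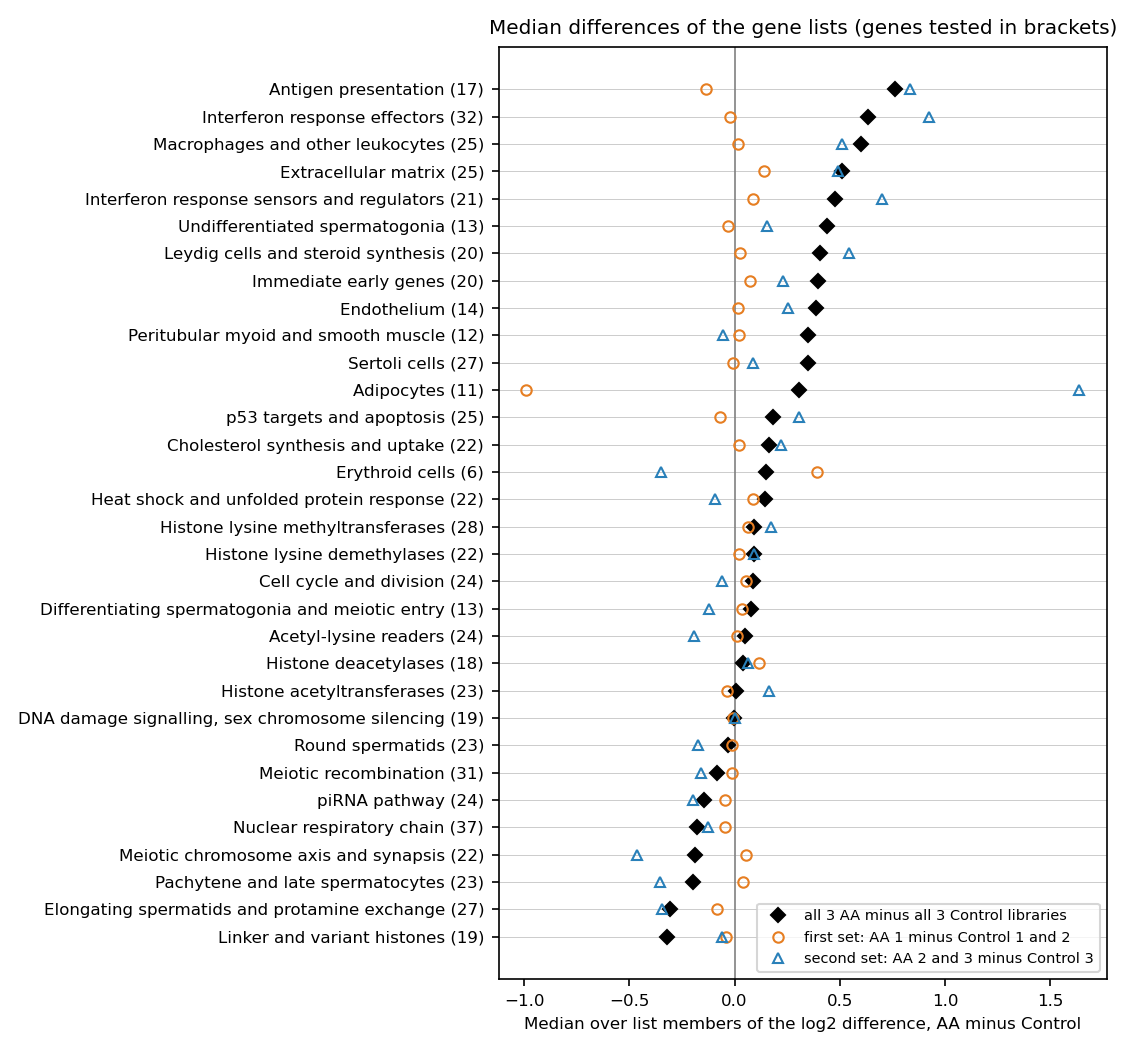
Median log2 difference, AA minus Control, of the members of 32 gene lists over all libraries (diamonds), within the first set (circles) and within the second set (triangles), without the replication-dependent histones, the mitochondrially encoded genes and the epididymis list. The elongating spermatid list lies below 0 in all 3 comparisons, at -0.31, -0.08 and -0.34, while the interferon effectors lie at 0.63, -0.02 and 0.92.

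The enzymes that write, erase and read histone marks, which the series is about, had medians over all libraries between 0.01 and 0.09. For 23 histone acetyltransferases the median was 0.01, with -0.04 in the first set, against 0.16 in the second, and for 18 deacetylases it was 0.04, with 0.12 and 0.06. For 24 acetyl-lysine readers it was 0.05 over all libraries, but 0.01 and -0.19 within the sets and -0.06 with the set as a term, and 20 of the 24 lay below 0 in the second set. For 28 lysine methyltransferases it was 0.09, with 0.07 and 0.17 within the sets, and for 22 lysine demethylases 0.09, with 0.02 and 0.09. Without AA 3 the medians of the acetyltransferases, readers, methyltransferases and demethylases lay between -0.06 and -0.02.

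Set beside 9.83% of all genes higher in both sets, the shares were 8.7% of the acetyltransferases, 22.2% of the deacetylases (4 of 18), 4.17% of the readers, 10.7% of the methyltransferases and 27.3% of the demethylases (6 of 22). Set beside 9.33% of all genes lower in both sets, 1 member of each of the first 4 lists and 0 demethylases lay lower.

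Among the demethylases, Kdm4a (ENSMUSG00000033326), which acts on lysines 9 and 36 of histone H3, was at 757, 868 and 1022 normalised counts in AA testes, against 614, 691 and 721 in Control testes. The groups did not overlap, with a log2 difference of 0.38 (SE 0.28), and 0.22 and 0.38 within the sets. Kdm5c, which acts on lysine 4 and is encoded on the X chromosome, and Kdm6a, which acts on lysine 27, had differences of 0.53 (SE 0.33) and 0.43 (SE 0.32). Phf8, the only such member whose promoter window holds the cyclic AMP response element TGACGTCA, had a difference of 0.11 (SE 0.30). That element is present in 3.06% of the tested genes with a window, in 2.31% of those higher in both sets and in 3.6% of those lower. Counted by window and not by gene, it is in 1.79% of all windows.

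Of the other enzymes, Hdac8 (ENSMUSG00000067567), a class I deacetylase, was low, at 32.1, 37.8 and 32.7 normalised counts in AA testes against 19.5, 14.9 and 28.8 in Control testes, with no overlap. Suv39h1, a methyltransferase of lysine 9, was at 344, 460 and 476 in AA testes against 303, 294 and 355 in Control testes, where AA 1 lay below Control 3. Setd7 and Setd1a, methyltransferases of lysine 4, had log2 differences of 0.72 (SE 0.44) and 1.03 (SE 0.55). Setd1a was at 590, 1101 and 1390 normalised counts in AA testes against 349, 283 and 1073 in Control testes, with a difference of 0.91 in the first set, against 0.20 in the second.

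Histone genes themselves followed the library sets. Of 51 replication-dependent histone genes 48 lay below 0 with a median of -1.83, but the median was -0.17 in the first set, against 0.02 in the second. Their share of the library total averaged 0.0673% ± 0.0682 in AA and 0.127% ± 0.0796 in Control (SD, n = 3 each, exact permutation test, two-sided p = 0.2, the smallest possible being 0.1). Within both sets 9 of the 51 were lower (17.6%, against 9.33% of all genes) and 3 higher (5.88%, against 9.83%). Linker and variant histones had 15 of 19 below 0 with a median of -0.32, and -0.04 and -0.06 within the sets. All 13 mitochondrially encoded genes lay above 0 with a median of 0.96, and their share averaged 5.15% ± 3.54 in AA and 3.52% ± 3.93 in Control (exact permutation test, two-sided p = 0.6). With the set as a term their median was -0.33, and it was -0.16 and -0.56 within the sets. All 13 lay below 0 in the second set. Within both sets 4 of 13 were lower (30.8%, against 9.33% of all genes) and 0 higher. After quantile normalisation 1 of 13 was lower in both sets (7.69%, against 8.66%).

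Nuclear genes of the respiratory chain had 31 of 37 members below 0 (median -0.18, and -0.04 and -0.13 within the sets). Ndufa1, a subunit of complex I, was at 1063, 576 and 592 normalised counts in AA testes, against 1150, 1334 and 1107 in Control testes, with no overlap and a log2 difference of -0.74 (SE 0.32, limma adjusted p = 1.00). Cox8c, the subunit of complex IV made in the testis, was at 6603, 3129 and 2168 in AA testes against 6591, 9785 and 5193 in Control testes, and AA 1 lay just above Control 1.

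Stress and division genes were described by 4 lists. Of 20 immediate early genes 18 lay above 0, with a median of 0.40, which was 0.07 and 0.23 within the sets, 0.06 with the set as a term and 0.12 without AA 3. Fosl2 and Atf3, factors of the AP-1 and ATF families, were the members higher in both sets, 2 of 20 (10%, against 9.83% of all genes). Atf3 was at 20.2, 22.0 and 81.8 normalised counts in AA testes against 13, 12.4 and 18.3 in Control testes. Of 25 p53 targets and apoptosis genes 18 lay above 0 (median 0.18), but the median was -0.07 and 0.31 within the sets, 0.07 with the set as a term and 0.05 without AA 3. Within both sets 4 of the 25 were higher (16%, against 9.83% of all genes), Apaf1 among them, and Tnfrsf10b was lower (4%, against 9.33%). Apaf1, the scaffold of the apoptosome, was at 289, 338 and 313 normalised counts in AA testes against 217, 208 and 239 in Control testes, with no overlap. For 22 genes of heat shock and the unfolded protein response the median was 0.14 over all libraries, 0.09 and -0.09 within the sets, 0.01 with the set as a term and -0.05 without Control 2. Of these 22, Ddit3, Atf4 and Dnajb9 were lower in both sets (13.6%, against 9.33% of all genes) and 0 were higher. After quantile normalisation 1 was lower and 4 were higher. For 24 genes of cell division the median was 0.09 over all libraries, 0.06 and -0.06 within the sets, -0.03 with the set as a term and -0.03 without AA 3 or without Control 2. Of these 24, 2 were higher in both sets (8.33%, against 9.83% of all genes) and 1 lower (4.17%, against 9.33%).

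Cells from outside the testis parenchyma varied between libraries. The median of 11 adipocyte genes was 0.30 over all libraries, -0.99 in the first set, against 1.64 in the second, and that of 6 erythroid genes 0.15, 0.39 and -0.35. The 3 tested epididymis genes had a median of -0.45, with -0.20 and -0.21 within the sets. The part of these cells in the values above was not tested.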

How the data were processed

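The authors deposited a signal table of normalised counts per Ensembl gene, with a column for each library. The submitters' processing notes name DESeq2 1.34.0, Salmon 0.12.0, FastQC 0.11.9 and the build GRCm39. Whole reads could not be recovered, so the depth is unknown and no counting interval is given. No source used here gives the strand setting, so overlapping antisense genes cannot be told apart. Symbols came from a GRCm38 annotation, which matched 35825 genes and left 293 unmatched, and promoter windows came from RefSeq on GRCm38.p6.

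Values were analysed as log2(normalised count + 1), a scale that understates the change of low genes. Genes with a mean of at least 10 were fitted with limma 3.58.1 in R 4.3.3, as 5 group means with a variance trend and 10 residual degrees of freedom. All tests were two-sided, with Benjamini-Hochberg adjustment over the 17896 genes and a threshold of 0.05. The fit was tested on simulated data. The simulated libraries held no library sets, so that test does not cover the division of the libraries seen here. SE is the model's standard error and SD the standard deviation over libraries.

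Libraries were grouped by their titles. The genes, the 35 gene lists, the library sets and the comparison were chosen with earlier results of these data known. Genes were named by rule: the 10 higher and 10 lower with the smallest p, the 10 with the largest within-set differences in each direction, and the list members with the smallest p or that met the within-set condition. Not every gene so picked is described.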

Additional observations from a re-analysis of the deposited data

How the results depend on the processing

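The count of 0 genes past the threshold became 2 with only the 6 AA and Control libraries in the limma fit and 6645 with library weights, which gave AA 2 a weight of 38.8 against 0.23 to 2.92 for the other libraries and did not converge. Leaving out 1 library gave 0 to 1 genes, with or without the set as a term, the 1 gene arising without Control 1. The other alternatives gave 0. The 143 genes at an unadjusted p under 0.05 became 578 with no filter, 88 with a mean of at least 50, 219 with the 6 libraries, 8658 with library weights and 297 with the set as a term, and 56 (without AA 3) to 644 (without AA 1) with 1 library left out (67 without Control 2, 347 without Control 3). The cause was not tested.

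Same-numbered AA and Control libraries deviated from their group means with correlations of 0.444, -0.299 and 0.675 for numbers 1, 2 and 3. The libraries numbered 1 share a set, as do those numbered 3, while those numbered 2 do not. Because of the sets, these correlations cannot show whether the numbers pair the libraries. A replicate block gave 761 genes under 0.05 and, together with the set term, 587, and 0 passed in either.

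Of 106 genes named with values, 100 kept their sign in all 17 alternatives. The 106 leave out Insl3, Cd3e, Gm28897, Gm28827 and Rdh16f1. The exceptions among the 106 were Smcp (-0.63 with the set term, -1.05 with the set term and replicate block, -0.29 to 1.7 with 1 library left out), Spata18 (0.078 by quantile normalisation, 0.27 with weights, -0.30 to 0.21 with 1 library left out), Brdt (0.0565 by quantile normalisation, -0.176 to 0.0165 with 1 library left out), Odf1 (0.18 with weights), Star (-0.21 with weights) and Phf8 (-0.197 with weights, -0.00264 to 0.237 with 1 library left out). None of the 106 passed in any alternative other than the weights, under which 85 did. Of the genes left out, Cd3e had a log2 difference of 0.32 over all libraries and -0.60 with the set term. Insl3 was at -0.15 over all libraries and 0.01 within the first set. Gm28897 and Gm28827 passed with only the 6 libraries, and Rdh16f1 passed without Control 1. Of the 35 lists, 16 kept the sign of their median in all 17 alternatives, among them the elongating spermatid (-0.53 to -0.13), Leydig (0.20 to 0.52), interferon effector (0.27 to 1.08) and extracellular matrix (0.25 to 0.77) lists. The unknown depth and the coarse values of the first set limit what can be said of low genes.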

Other observations

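Genes at 0 in some libraries stood out after their values were seen. The predicted genes Gm28897 and Gm28827, both on the Y chromosome in the GRCm38 annotation, were the 2 genes that passed with only the 6 libraries (limma adjusted p = 0.00842 each). Gm28897 was at 465, 220 and 221 normalised counts in AA testes and at 0 in all 3 Control libraries, and Gm28827 at 432, 204 and 205 in AA testes and at 0 in all 3 Control libraries. Their annotated transcripts share 893 of 893 stretches of 31 bases, so reads cannot be told apart between them. Both were also above 0 in some libraries of the other treatments and at 0 in others of the same treatment: Gm28897 was at 249 normalised counts in TSA 1 and at 0 in TSA 2 and TSA 3. Rdh16f1, a retinol dehydrogenase family member, was at 27, 32.9 and 32 normalised counts in AA testes, against 15.7, 0 and 0 in Control testes, and passed only without Control 1 (limma adjusted p = 0.00192). It was above 0 in every library of the other treatments, at 21.4 to 41.5.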
